A study of Homo sapiens with 4 samples.

Results

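The miRNAs miR-224 and miR-452 come from neighbouring hairpins inside GABRE, the gene of the GABA-A receptor epsilon subunit, and were followed in K562 cells depleted of ERH. miR-224-5p was chosen by its high read count in these libraries, and the rule added its other arm, miR-224-3p, and both arms of miR-452. All 4 names had a row among the 2366 human miRNA rows of the deposited tables. Of these, 3 passed the filter on low counts, and miR-452-3p, listed at 0 in each library, did not. The level of miR-224-5p therefore describes how it was chosen and was not tested.

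The cells were K562-dCas9-KRAB, an established human chronic myeloid leukaemia line that carries a catalytically inactive Cas9 fused to a repressor domain, the basis of CRISPR interference, in which a guide RNA directs silencing of a gene. ERH was targeted with 2 guide RNAs, each in a polyclonal, doxycycline-inducible line of its own. ERH knockdown cells received 0.05 µg/ml doxycycline and control cells of the same lines received none. RNA was taken after 5 days, which gave 2 small-RNA libraries per group. The knockdown libraries held 2227374 and 2393565 miRNA reads (guide RNA 1, then 2) and the control libraries 1430434 and 2476700. Small-RNA libraries do not show ERH mRNA, so the extent of its loss is unknown here. An arm with doxycycline but no guide RNA against ERH is not part of this comparison. The erythroid miRNA miR-451a and the blood cell miRNA miR-142-3p averaged 24101 and 55966 CPM (counts scaled to a common total of miRNA reads) in knockdown and 24896 and 60127 CPM in control libraries. The other blood markers, miR-144-3p, miR-486-5p and miR-223-3p, averaged 17833, 7475 and 28682 CPM in knockdown and 7896, 5718 and 30845 CPM in control libraries. The shares of miR-144-3p and miR-486-5p were thus higher after knockdown, and those of the remaining blood markers were lower. miR-122-5p of liver, miR-124-3p of neurons, miR-1-3p and miR-206 of muscle and miR-150-5p of mature lymphocytes had at most 8 reads in any library. miR-9-5p, also a marker of neurons, and the epithelial miR-200c-3p were present. They averaged 370 and 82.4 CPM in knockdown and 310 and 47.5 CPM in control libraries.

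A miRNA hairpin is cut out of its primary transcript in the nucleus by the Microprocessor (Drosha with DGCR8), and Dicer then cuts it to a short duplex. One arm of the duplex is usually kept by Argonaute and guides it to mRNAs through the seed, while the other arm is mostly lost. ERH, a conserved partner protein of this complex, was depleted to ask how it and neighbouring hairpins bear on the cutting of hairpins with poor features. miR-224 is best known for its high level in liver cancer, and both hairpins sit in its host gene GABRE.

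The sequences below are shown because the 2 hairpins share a host gene but not a seed. They are RefSeq entries on GRCh38.p14, written 5′ to 3′, and capitals mark the seed (bases 2 to 8).
hsa-miR-224-5p: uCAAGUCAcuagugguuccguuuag
hsa-miR-224-3p: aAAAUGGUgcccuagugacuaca
hsa-miR-452-5p: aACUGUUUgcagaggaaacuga
hsa-miR-452-3p: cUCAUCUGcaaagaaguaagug
No other RefSeq miRNA with a row shared the seed of miR-224-5p, miR-224-3p or miR-452-3p. The seed of miR-452-5p recurred in miR-4676-3p and in miR-892c-3p.
hsa-miR-4676-3p: cACUGUUUcaccacuggcucuu
hsa-miR-892c-3p: cACUGUUUccuuucugagugga
Knockdown libraries held 6 and 6 reads of miR-4676-3p and control libraries 2 and 6, and miR-892c-3p was listed at 0 in each library. Among names with a RefSeq sequence, nearly all reads with this seed were those of miR-452-5p; the 276 rows without one, 51 of them tested, were not searched.

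The hairpins below are printed with both mature arms in capitals, since the arms are what the libraries count.
MIR224: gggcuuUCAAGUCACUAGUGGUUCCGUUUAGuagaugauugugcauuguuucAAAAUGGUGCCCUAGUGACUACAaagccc
MIR452: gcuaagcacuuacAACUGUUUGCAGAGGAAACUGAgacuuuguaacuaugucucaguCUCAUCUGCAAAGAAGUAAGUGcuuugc
Both lie on the minus strand, MIR224 at chrX:151958578-151958658 and MIR452 at chrX:151959628-151959712, with 969 bases between them. No further hairpin of the RefSeq table lay within 50 kb on that strand. GABRE spans chrX:151953124-151974680 on the same strand. In GENCODE 29, MIR224 lay in an intron of 2 of the 12 GABRE transcript models and overlapped an exon of 2 others. MIR452 lay in an intron of 3 models and overlapped an exon of 1. Predicted folding energy (RNAfold) was -37.3 kcal/mol for MIR224 over 81 bases and -41.3 kcal/mol for MIR452 over 85 bases. Per base, this came to -0.46 and -0.49 kcal/mol, against a median of -0.48 over 309 hairpins with a tested miRNA, 117 of which were less stable than MIR224 and 158 less stable than MIR452. The predicted terminal loop had 5 bases in MIR224 and 11 in MIR452. GC content was 44.4% and 41.2%, against a median of 50.7%.

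miR-224-5p was among the most abundant miRNAs in both groups, and miR-452-5p was several-fold lower. There were 16895 and 17776 reads of miR-224-5p in the knockdown libraries and 12703 and 21290 in the control libraries. These made 0.759% and 0.743% of miRNA reads after knockdown (95% exact intervals 0.747% to 0.770% and 0.732% to 0.754%) and 0.888% and 0.860% in controls (0.873% to 0.904% and 0.848% to 0.871%). Both knockdown shares lay below both control shares, and the intervals did not overlap between groups. The shares of the groups did not overlap for 83.4% of tested miRNAs, and 14.2% were lower in both knockdown libraries than in both controls. Such intervals, here and below, cover counting error only. They were computed for the members alone, so no share of all miRNAs stands beside them. The share averaged 7506 ± 112 CPM after knockdown and 8738 ± 201 CPM in controls (SD, n = 2 each). By mean CPM, miR-224-5p ranked 24 of 464 tested miRNAs after knockdown and 18 in controls. Just above it in controls stood miR-126-5p and miR-191-5p, at 10417 and 9505 CPM, and just below it miR-17-3p and miR-15a-5p, at 8309 and 8273 CPM. Each read covers a whole miRNA, so these levels need no correction for length, but ligation and amplification can favour some sequences.

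miR-452-5p kept nearly the same share of miRNA reads in all 4 libraries. Its reads numbered 2591 and 2713 after knockdown, against 1672 and 2895 in controls. These correspond to 1163 and 1133 CPM after knockdown and to 1169 and 1169 CPM in controls. The exact 95% interval of its share ran from 0.112% to 0.121% and from 0.109% to 0.118% after knockdown, and from 0.111% to 0.123% and from 0.113% to 0.121% in controls, so the intervals of the groups overlapped although both knockdown values were the lower. It ranked 74 of the tested miRNAs after knockdown and 67 in controls.

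**Figure D1:**
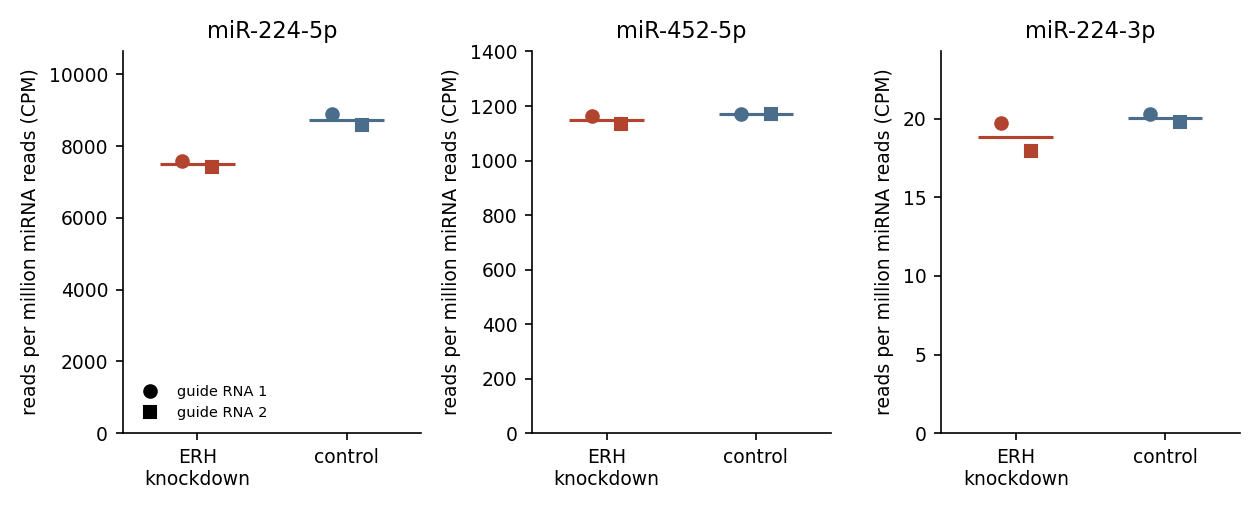
Share of miRNA reads (CPM, vertical) of the 3 members that were tested, in ERH knockdown (left) and control (right) libraries; points are libraries, circles guide RNA 1 and squares guide RNA 2, and bars are means. miR-224-5p lies at 7585 and 7427 CPM after knockdown, below 8881 and 8596 CPM in controls, while miR-452-5p lies between 1133 and 1169 CPM throughout.

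Both hairpins gave reads almost only from the 5p arm. The minor arm miR-224-3p was read 44 and 43 times after knockdown, against 29 and 49 times in controls, or 19.8 and 18.0 CPM after knockdown and 20.3 and 19.8 CPM in controls. miR-224-5p had 384 and 413 reads per read of miR-224-3p after knockdown and 438 and 434 in controls. Among 104 hairpins whose arms both passed the filter and have RefSeq entries, none had a higher ratio of 5p to 3p reads over the 4 libraries. The median ratio was 1.60 on the log2 scale, against 8.69 for miR-224. Hairpins with an arm that failed the filter or is not in RefSeq are absent from that count. MIR96 is one of these, with 22037 5p and 15 3p reads in all, a higher ratio than that of miR-224 (68664 and 165). miR-452 is another, with 0 reads of its 3p arm. A count of 0 allows up to 3 reads, so miR-452-5p was at least 864-fold and 904-fold above miR-452-3p in the knockdown libraries and at least 557-fold and 965-fold in the control libraries. A second count took hairpins with both arms in the tables and in RefSeq, and a dominant arm of at least 1000 CPM in controls. Of these 52, 3 had the other arm listed at 0 in all libraries, namely MIR128-2, MIR222 and MIR452. Abundant hairpins with an arm not in RefSeq are absent from the 52. By the share of the minor arm, with 0.24% of arm reads, MIR224 ranked 9 of those 52, whose median share was 1.77%. How reads of minor arms were assigned is not given in the sources used here, and its part in these counts of 0 was not tested.

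Relative to the bulk of miRNAs, miR-224-5p and miR-452-5p fell after ERH knockdown with both guide RNAs, but with the sum of the added spike-in RNAs as the scale neither was lower, and with library size miR-452-5p was not called. These are bulk libraries, so fewer cells with a miRNA and less of it per cell cannot be told apart. miR-224-5p had a log2 fold change of -0.66 ± 0.05 (SE, 2 libraries per group; adjusted p = 3.6e-08, edgeR quasi-likelihood test with TMM scaling and Benjamini-Hochberg adjustment over 464 miRNAs). On this scale its log2 CPM was 12.65 and 12.66 after knockdown and 13.30 and 13.33 in controls, and the groups did not overlap. miR-452-5p had a log2 fold change of -0.46 ± 0.06 (edgeR adjusted p = 1.4e-05), with log2 CPM of 9.94 and 9.95 after knockdown and 10.37 and 10.45 in controls. miR-224-3p stood at -0.53 ± 0.22 and was not called (edgeR adjusted p = 0.058), with log2 CPM of 4.14 and 4.05 after knockdown and 4.58 and 4.62 in controls.

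The call itself sets neither miRNA apart. Of all tested miRNAs 50.9% were called, 25.6% up and 25.2% down (119 and 117 miRNAs), and the TMM log2 CPM of the groups did not overlap for 76.3%. A lower log2 fold change than that of miR-224-5p was seen for 49 miRNAs, and 81 lay below miR-452-5p. Among the 20 most abundant miRNAs in controls all 20 were called down with TMM, at a median of -0.54 that was -0.099 with library size and 0.16 with spike-ins. With TMM 3 of the 20 lay lower than miR-224-5p, an order that scaling leaves as it is.

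**Figure D2:**
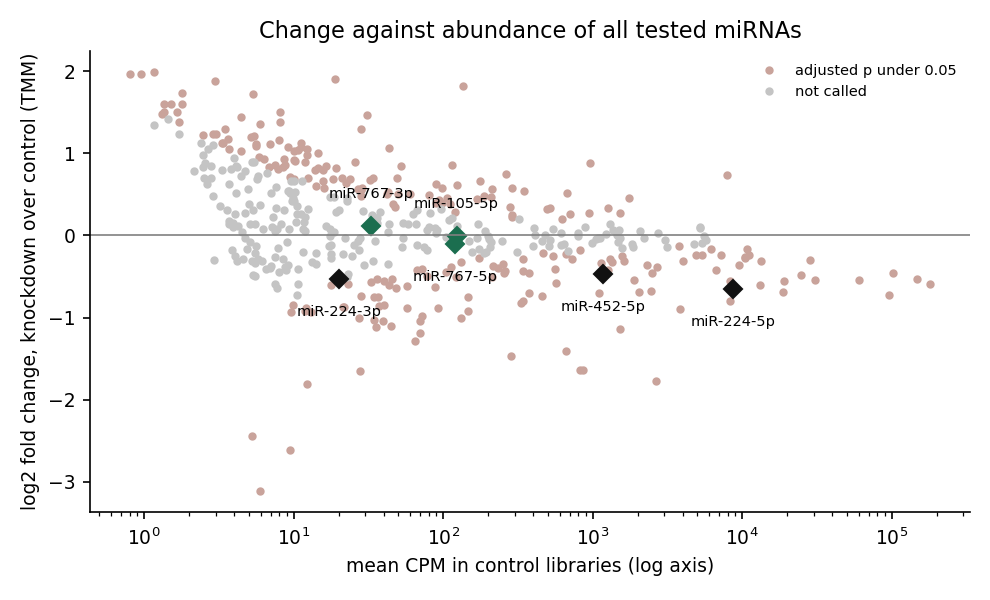
Log2 fold change of ERH knockdown over control with TMM scaling (vertical) against mean control CPM (horizontal, log axis) for 464 tested miRNAs; black diamonds are the GABRE miRNAs and green diamonds those of GABRA3. miR-224-5p (-0.66) and miR-452-5p (-0.46) lie below 0 here, as the most abundant miRNAs do, and both are above 0 when spike-ins set the scale (0.033 and 0.22).

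The size and the sign of these changes depended on how libraries were scaled to each other, while the guide RNAs gave like values under each scale that uses miRNA reads. For miR-224-5p the log2 ratio of knockdown to control was -0.65 with guide RNA 1 and -0.66 with guide RNA 2 with TMM, and -0.23 and -0.21 with library size alone. Per 1000 spike-in reads, miR-224-5p had 285 reads after knockdown against 275 in controls with guide RNA 1, and 371 against 366 with guide RNA 2. On that scale the guide RNA lines differed more than knockdown and control did. The fitted value was -0.22 ± 0.06 with library size (edgeR adjusted p = 0.0010; 67.7% of all tested miRNAs were called there, 8.84% down) and 0.033 ± 0.39 with the spike-in sum (adjusted p = 0.94). With spike-ins 41.8% of tested miRNAs were called, 40.1% up and 1.72% down. With the guide RNA as a block the spike-in value was 0.036 ± 0.058 (edgeR adjusted p = 0.57), a choice made after the data were seen.

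miR-452-5p stood at -0.025 ± 0.076 with library size (edgeR adjusted p = 0.78) and at 0.22 ± 0.38 with spike-ins (adjusted p = 0.64). There were 43.8 reads per 1000 spike-in reads after knockdown against 36.2 in controls with guide RNA 1, and 56.7 against 49.8 with guide RNA 2. With the guide RNA as a block, the spike-in value was 0.23 ± 0.08, and miR-452-5p was then called up (edgeR adjusted p = 0.0071). That fit called 72.6% of all tested miRNAs up and 3.66% down (76.3% in either direction), so a call up was the common outcome there. miR-224-3p stood at -0.084 ± 0.23 by library size and at 0.14 ± 0.37 by spike-ins, neither of them called by edgeR.

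The spike-ins, a frog and a fly miRNA by their names, did not keep 1 ratio across libraries. The fly RNA had 0.129 and 0.102 reads per read of the frog RNA after knockdown and 0.140 and 0.139 in controls. By the frog RNA alone, the log2 ratio of miR-224-5p was 0.038 for guide RNA 1 but -0.029 for guide RNA 2; scaled to the fly RNA alone, these ratios were 0.16 and 0.42. miR-452-5p stood at 0.26 and 0.14 by the frog RNA and at 0.38 and 0.59 by the fly RNA. At which step the spike-ins were added is not given in the sources used here.

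**Figure D3:**
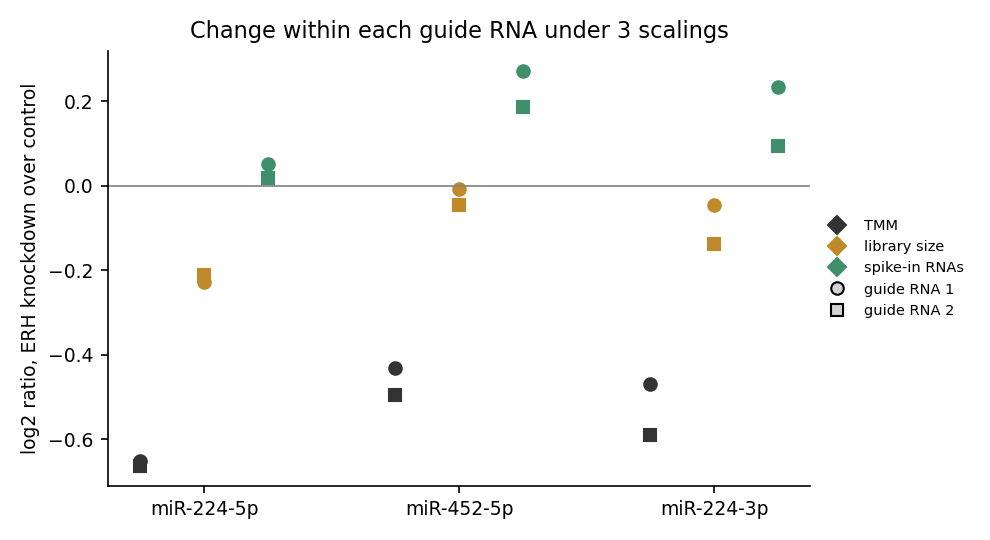
Log2 ratio of ERH knockdown to control within guide RNA 1 (circles) and guide RNA 2 (squares) for each tested member under TMM (black), library size (ochre) and spike-in (green) scaling. miR-224-5p moves between -0.66 and 0.05 and miR-452-5p between -0.50 and 0.27 as the scale changes.

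Counts of neighbours within a library need no scaling. miR-224-5p had 6.52 and 6.55 reads per read of miR-452-5p after knockdown and 7.60 and 7.35 in controls. The exact 95% intervals reached up to 6.80 and 6.82 after knockdown and down to 7.22 and 7.07 in controls. Both knockdown ratios were lower than both control ratios, and the counting intervals did not overlap. Intervals were not computed for other pairs, so how common such a gap is among neighbours was not examined. The mean ratio came to 6.54 ± 0.02 after knockdown and 7.48 ± 0.17 in controls (SD, n = 2 each), 12.6% lower after knockdown. An exact two-sided permutation test of 2 libraries against 2 gave p = 0.333, the smallest it can give.

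No change of this ratio was called when it was fitted with those of all neighbours. The fit held 240 pairs from 33 clusters of hairpins within 10 kb on 1 strand. Of these pairs, 171 came from a single cluster of 19 hairpins on chromosome 19. Only tested arms with a RefSeq entry could represent a hairpin, the higher one where both had an entry. Some hairpins were thus represented by their lower arm. MIR660 entered as miR-660-3p, at a mean of 78.1 CPM in controls, although miR-660-5p stood at 613 CPM. Likewise, MIR425 entered as miR-425-3p (72.3 CPM), although miR-425-5p stood at 3858 CPM. In this fit limma put the miR-224 to miR-452 change at -0.19 ± 0.14 (log2, SE; adjusted p = 0.59). By size of change the pair ranked 152 of all 240, whose median size was 0.29, and 42 of the 69 pairs of the other 32 clusters, whose median was 0.30. limma called 0 of the 240 pairs, while 48 had an unadjusted p under 0.05. When the prior variance was allowed to follow read depth, 30 pairs were called, and miR-224 to miR-452 was at -0.19 ± 0.06 (limma adjusted p = 0.079). The ratios of the groups did not overlap for 50.4% of the pairs, for 75.4% of those outside the large cluster, and for 13 of the 20 pairs that form a cluster of exactly 2 hairpins. Among those 20, 9 changed by less than this one. The largest changes were 1.63 ± 0.18 for miR-520d-5p to miR-518e-3p, 1.56 ± 0.17 for miR-132-5p to miR-212-3p and 1.51 ± 0.33 for miR-520d-5p to miR-516a-5p.

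**Figure D4:**
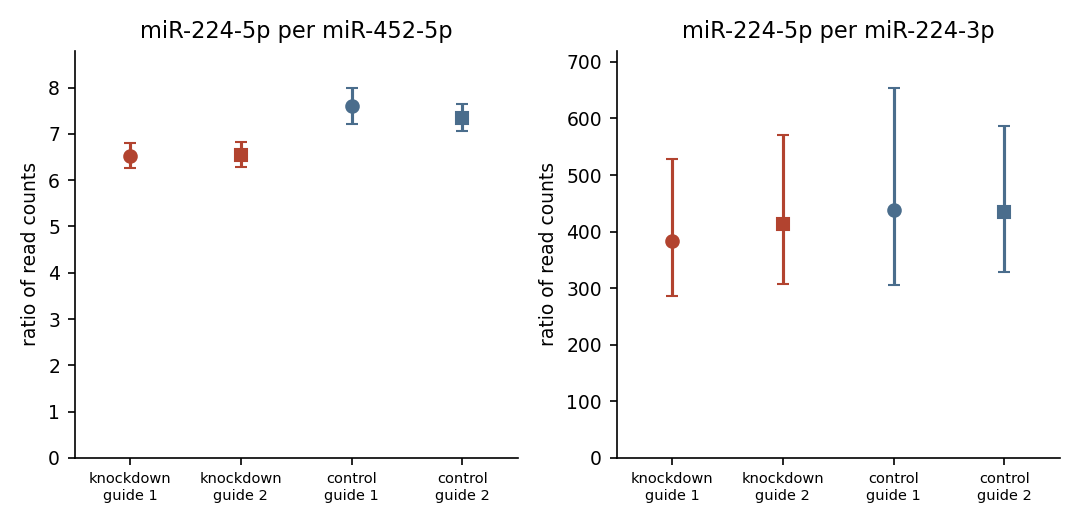
Reads of miR-224-5p per read of miR-452-5p (left) and per read of miR-224-3p (right) in each library, knockdown first; bars are exact 95% counting intervals. The ratio to miR-452-5p is 6.52 and 6.55 after knockdown and 7.60 and 7.35 in controls, with no overlap of intervals, whereas the wide intervals of the ratio to miR-224-3p all overlap.

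With 29 to 49 reads of the minor arm per library, no change in the arm ratio of miR-224 was detectable. The mean of 5p reads per 3p read came to 399 ± 21 after knockdown and 436 ± 3 in controls (SD, n = 2 each; exact two-sided permutation p = 0.333, the smallest possible). The intervals of single libraries, from 286 to 529 and 307 to 571 after knockdown and from 305 to 654 and 329 to 587 in controls, overlapped. limma over 104 hairpins gave a log2 change of -0.13 ± 0.13 (adjusted p = 0.63). That SE rests on a prior variance common to all hairpins. It was 0.21 when the prior variance followed read depth (limma adjusted p = 0.73) and 0.30 with the replicate block. The main fit called 0 hairpins, with 24 at an unadjusted p under 0.05, and 18 were called when the prior variance followed read depth. The groups did not overlap for 53.8% of hairpins. The largest changes were -1.88 ± 0.26 for miR-3944, -1.83 ± 1.03 for miR-520a and 1.47 ± 0.31 for miR-1343. The ratio of miR-224-3p to miR-452-5p stood at -0.066 ± 0.15 on the log2 scale (limma adjusted p = 0.89), with an SE that likewise rests on a common prior variance.

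**Figure D5:**
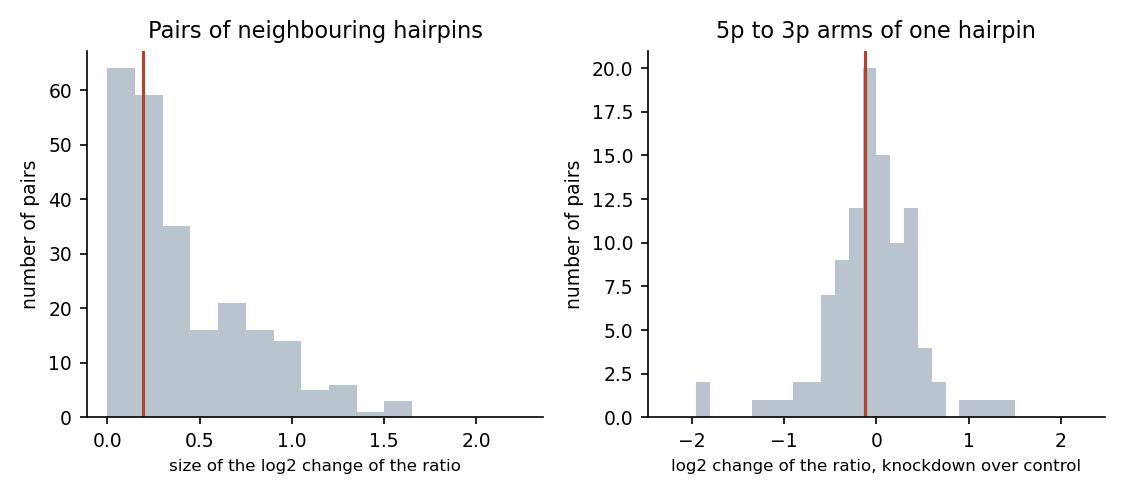
Number of pairs by the size of the log2 change of the count ratio for 240 pairs of neighbouring hairpins (left) and by the signed change for the arms of 104 hairpins (right); red lines mark miR-224-5p to miR-452-5p (size 0.19) and miR-224-5p to miR-224-3p (-0.13). Both lines stand within the bulk of pairs, and 171 of the 240 pairs on the left are of a single cluster.

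The hairpins of miR-105 and miR-767 lie in an intron of another GABA-A receptor gene on the X chromosome, GABRA3. Knockdown libraries held 391 and 360 reads of miR-105-5p, against 194 and 272 in control libraries, and its log2 fold change was -0.012 ± 0.11. For miR-767-5p these numbers were 349 and 349 against 177 and 289, and it stood at -0.11 ± 0.10, and miR-767-3p stood at 0.11 ± 0.19. None of these 3 was called with TMM or with spike-ins (edgeR; with TMM the adjusted p was 0.94, 0.42 and 0.66), and all 3 were called up with library size, as 58.8% of all tested miRNAs were. miR-105-3p had at most 4 reads and was not tested. Whether the GABRE miRNAs changed differently from those of GABRA3 was not tested.

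Wider lists that hold the GABRE miRNAs lay below the bulk with TMM scaling. Of 38 tested miRNAs of chromosome X, 17 were called down and 3 up (44.7% and 7.89%, against 25.2% and 25.6% of all 464). Their median log2 fold change was -0.22, or -0.18 over the 35 left without the GABRE miRNAs, against 0.064 for all. The directions turned with the scale, to 7 down and 15 up with library size (18.4% and 39.5%, against 8.84% and 58.8% of all tested) and 1 down and 5 up with spike-ins (2.63% and 13.2%, against 1.72% and 40.1%). Of 64 tested miRNAs of clusters with exactly 2 hairpins in the RefSeq table, which does not hold all names, 34 were called down and 9 up (53.1% and 14.1%), with a median of -0.36, or -0.34 over the 61 left without the GABRE miRNAs. They too turned, to 11 down and 23 up with library size (17.2% and 35.9%) and 2 down and 13 up with spike-ins (3.12% and 20.3%). With TMM, larger clusters had a median of -0.027 (71 miRNAs, 21 down and 16 up) and single hairpins one of 0.10 (226 miRNAs, 44 down and 56 up). On the library size scale the medians were 0.22 for chromosome X and 0.077 for 2-hairpin clusters, against 0.50 for all tested, and with spike-ins 0.47 and 0.33 against 0.75. Scaling moves all miRNAs by about the same amount, so where a list stands relative to the others is 1 observation and not 3.

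By their centred log2 CPM over the 4 libraries with TMM, the miRNAs most like miR-224-5p among 164 with at least 100 CPM in controls were miR-374b-5p, miR-15b-5p and miR-532-3p. Their root mean square differences from it were 0.025, 0.030 and 0.055 log2 units, and their log2 fold changes were -0.69, -0.60 and -0.74. With 4 libraries in 2 groups, this likeness mostly restates a similar fold change.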

How the data were processed

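The authors deposited raw read counts, 1 whole number per mature miRNA name, for each of 4 small-RNA libraries of gel-purified RNA extracted with TRIzol, per the labels. For adapter trimming, aligner, miRNA annotation and genome build, the entry is "not given in the sources used here". The handling of reads that match several miRNAs is likewise not stated. Each table has 2368 rows, 2 of them spike-ins, which were left out of totals and fits. Totals are sums of these rows, and the limit set by a count of 0 (3 reads) is 1.21 to 2.10 CPM.

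Groups came from the labels. Each guide RNA gave a single culture per condition, and p-values cover no more than the spread between these 4 libraries. Within a group, libraries differed beyond sampling noise (chi-square divided by its degrees of freedom, 3.93 in knockdown and 10.1 in control). Same-numbered samples are the same guide RNA line, which pairs them by design. Their deviations from the group means of TMM log2 CPM had a correlation of -0.11. That value holds for the TMM scale only. With spike-ins, the replicate block lowered the SE of miR-224-5p from 0.39 to 0.058.

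Low counts were removed by edgeR 4.0.16 (R 4.3.3; filterByExpr with a minimum count of 10 and a total of 15), and the rest were given TMM factors and tested by quasi-likelihood without a block. An adjusted p under 0.05 was called, and a prior count of 2 entered log2 CPM. The SE of an edgeR log2 fold change is its size divided by the square root of the quasi-likelihood F statistic. The variance in that statistic is moderated over all tested miRNAs, so the SE does not rest on the member's libraries alone. Ratios of 2 miRNAs, with 0.5 added to each count in the test, were tested with limma 3.58.1 over all neighbouring hairpins or all arm pairs. Names were matched to RefSeq hairpins (GRCh38.p14) for 2090 of 2366 names and 413 of 464 tested ones; hosts came from GENCODE 29 and folds from RNAfold 2.7.2. Alternatives were a replicate block, RLE factors, library size, spike-in scaling, other filters, DESeq2 1.42.0, leaving out the most abundant miRNA or 1 library, other ratio settings, and, chosen after seeing the data, the block together with library size or spike-ins.

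Besides the members, miRNAs are named by a rule: GABRA3 miRNAs, shared seeds, the 2 ranks on either side of miR-224-5p, the 3 most similar profiles, the 3 largest changes of each ratio, and marker miRNAs. Of the markers, miR-133a-3p and miR-375 have no row under that spelling and were not analysed here. The members and lists were chosen with earlier results of these data known. On simulated counts for 464 miRNAs, edgeR found 86.2% of log2 changes of 1 and 57.6% of those of 0.5, with 2.11% of its calls false. Whether these edgeR rates hold for the data, where the 20 most abundant miRNAs in controls were all called down with TMM, was not tested. Over 240 simulated pairs, limma called 52.8% of those that parted by at least 1 and 2.06% of unchanged ones. In the data it called 0 of 240 pairs although changes reached 1.63 in size, so the simulated rate was not met there. An uncalled ratio is therefore not shown to be unchanged.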

Additional observations from a re-analysis of the deposited data

How the results depend on the processing

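miR-224-5p was lower after knockdown and called in each alternative except spike-in scaling, where its log2 fold change was 0.033, or 0.036 with the replicate block; without 1 library it ran from -0.66 to -0.63. miR-452-5p kept its call except with library size (-0.025, or -0.026 with the replicate block) and spike-ins (0.22, or 0.23 with the block, called up); without 1 library it ran from -0.49 to -0.41. miR-224-3p was called with RLE factors (-0.58) and in no other alternative; it turned to 0.14 with spike-ins and 0.16 with spike-ins and the block, and ran from -0.57 to -0.48 without 1 library. The replicate block with TMM changed no call of a member. The median over all tested miRNAs lay 0.44 higher with library size and 0.68 higher with spike-ins. The list medians turned to 0.22 and 0.47 for chromosome X and to 0.077 and 0.33 for 2-hairpin clusters with library size and spike-ins. The count of called miRNAs was 236 (119 up, 117 down), 150 with DESeq2 (48 up, 102 down), and 132 to 189 without 1 library; the lowest, without knockdown replicate 2, had 51 up and 81 down. It was 314 with library size (273 up, 41 down), 194 with spike-ins (186 up, 8 down) and 354 with spike-ins and the block (337 up, 17 down). Why single calls moved was not tested, beyond the fewer libraries that leaving 1 out brings. The neighbour ratio was lower and uncalled in all 9 alternatives (-0.22 to -0.066, and -0.22 to -0.17 without 1 library), and the arm ratio in all 7 (-0.18 to -0.075). The -0.066 is that of miR-224-3p to miR-452-5p, whose values overlapped between the groups. For both ratios, the replicate block and the prior variance that follows read depth cannot move the estimate and bear only on the call. The same holds for the neighbour ratio with clusters at 50 kb. The other arm of miR-452, at 0 reads, could not be fitted. At about 40 reads per library, counting error limits miR-224-3p.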
